A study of Homo sapiens with 4 samples.

Results

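ATOH8 and TCF3 peaks were examined at 10 genes whose products promote ferroptosis by oxidising membrane lipids or by supplying the lipids that are oxidised: ACSL4, LPCAT3, ALOX5, ALOX12, ALOX15, POR, CYB5R1, PEBP1, NOX1 and NOX4. The genes were chosen by name, with earlier results of these data known. They are 10 of 19970 protein-coding genes that RefSeq places on chromosomes 1 to 22 and X of GRCh38. A peak was assigned to a gene when its midpoint lay inside the gene or within 50 kb of it. By this rule 6 of 4997 ATOH8 peaks and 11 of 11390 TCF3 peaks belonged to the 10 genes. Only at POR did an ATOH8 peak touch a gene of the set. At POR, ALOX5 and NOX4 a TCF3 peak did so, and ACSL4, PEBP1 and NOX1 had no listed peak of either factor.

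The peaks came from chromatin immunoprecipitation followed by sequencing (ChIP-seq). The cells were DU145, a long-established line from a human prostate cancer, and were fixed in 1% formaldehyde for 10 min. The 4 libraries were an ATOH8 Flag immunoprecipitation, its ATOH8 Flag input, a TCF3 Myc immunoprecipitation and its TCF3 Myc input, with 1 library per group. Flag and Myc are short peptide tags, so the lists describe tagged protein. How and at what level the tagged proteins were expressed is not stated in the labels. No treatment is named, and expression, which would check the labelled cell type, was not measured by these files. The title of the series concerns sensitivity to ferroptosis, which makes peaks at the enzymes of lipid peroxidation a comparison of interest.

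Ferroptosis is an iron-dependent cell death in which phospholipids with polyunsaturated tails become peroxidised. ACSL4 attaches coenzyme A to arachidonic and adrenic acid, and LPCAT3 places such fatty acids into phospholipids. Lipoxygenases, the reductases POR and CYB5R1 and the NADPH oxidases then add oxygen to lipids or make the reactive oxygen that does so. ATOH8 and TCF3 are basic helix-loop-helix proteins. Factors of that family bind short DNA words called E-boxes, of the form CANNTG.

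The authors' peak score has no stated definition and was read only within a list. No peak of the ATOH8 list scored between 356 and 996, 280 and 326 or 189 and 232, and no peak of the TCF3 list between 280 and 887. Peaks with such scores were not analysed here, and read depth was unknown. A gene without a listed peak was therefore not taken to be unbound. With 1 library per factor no value has a replicate error and no test was made.

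An ATOH8 peak lay within 50 kb of 3 of the 10 genes, POR, LPCAT3 and CYB5R1 (30%, Wilson 95% interval 10.8 to 60.3%), where 43.6% of all protein-coding genes had such a peak. A TCF3 peak lay within 50 kb of 7 of the 10 (70%, 39.7 to 89.2%), namely POR, LPCAT3, CYB5R1, ALOX5, ALOX12, ALOX15 and NOX4, against 53.7% of all protein-coding genes. The intervals cover the counting of genes only, and both hold the share of all genes. Peaks of both factors were listed at POR, LPCAT3 and CYB5R1 (30% against 28.1%), and peaks of neither at ACSL4, PEBP1 and NOX1 (30% against 30.8%). Within 5 kb the counts were 2 for ATOH8 (20% against 25.1% of all genes) and 3 for TCF3 (30% against 32.9%). Within 1 kb they were 1 (10% against 22.2%) and 3 (30% against 29.3%), and within 100 kb they were 4 (40% against 55.5%) and 7 (70% against 65.9%). The 10 genes had a mean of 0.6 ATOH8 and 1.1 TCF3 peaks each, and all protein-coding genes had means of 0.717 and 1.11. In number, then, the peaks at the 10 genes were near the background in both lists.

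**Figure D1:**
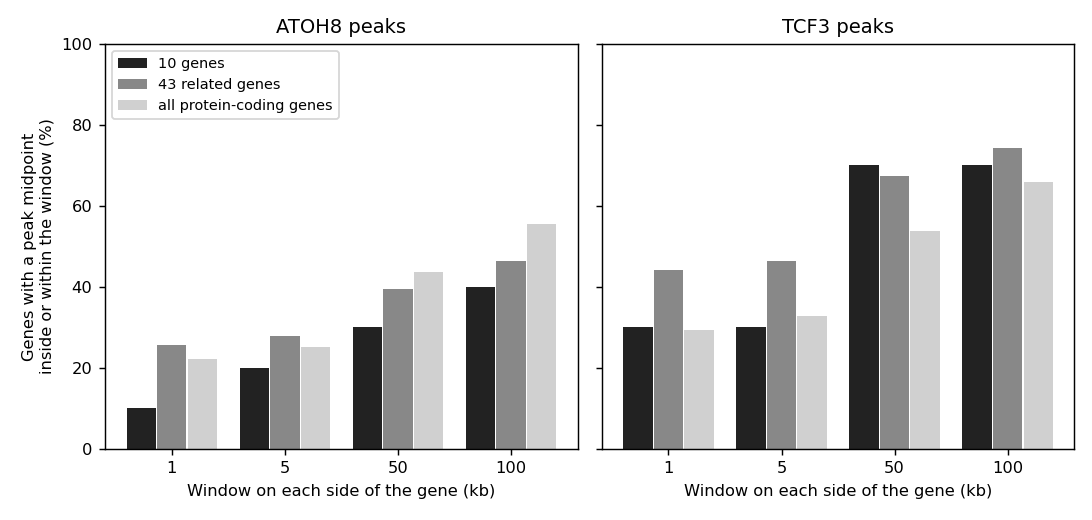
Share of genes (vertical axis, percent) with a peak midpoint inside the gene or within 1, 5, 50 or 100 kb of it (horizontal axis), for the 10 genes, the 43 related genes and all protein-coding genes, with ATOH8 peaks on the left and TCF3 peaks on the right. At 50 kb the 10 genes stand at 30% for ATOH8 and 70% for TCF3, beside 43.6% and 53.7% of all protein-coding genes.

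Nearness to a gene of the set often meant that the peak lay at another gene. Of the 6 ATOH8 peaks, 1 had the assigned gene as its nearest protein-coding gene, and 5 lay nearer to another gene. Of the 11 TCF3 peaks, 5 had the assigned gene as the nearest. Over all pairs of a protein-coding gene and a peak within 50 kb, the gene was the nearest in 33.2% of ATOH8 pairs and 39.0% of TCF3 pairs. The genes differed in how crowded their surroundings were: 6 other protein-coding genes lay within 50 kb of LPCAT3 and 5 within 50 kb of ALOX12, but 1 each near ACSL4, ALOX5 and NOX4. Gene length ran from 5.385 kb (CYB5R1) to 265.205 kb (NOX4). Among all protein-coding genes, the shares with an ATOH8 peak within 50 kb were 42.6%, 45.7% and 42.4% in the shortest, middle and longest of 3 length classes, and the TCF3 shares were 56.2%, 49.9% and 54.9%.

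**Figure D2:**
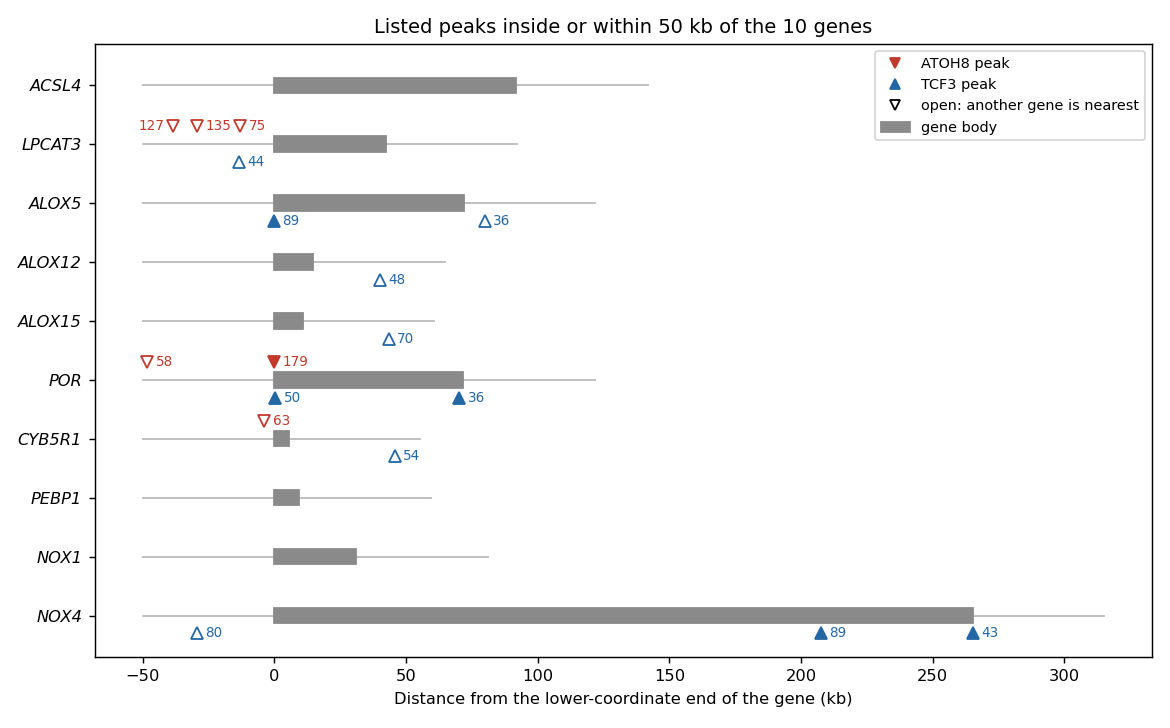
Listed peaks around each of the 10 genes, drawn to scale as distance in kb from the lower-coordinate end of the gene, with ATOH8 peaks as triangles above and TCF3 peaks as triangles below the gene body and the score printed beside each. Filled triangles, whose nearest protein-coding gene is the gene of that row, appear at POR, ALOX5 and NOX4 only, and the rows of ACSL4, PEBP1 and NOX1 are empty.

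POR, the cytochrome P450 reductase, passes electrons from NADPH to partner proteins and yields hydrogen peroxide in doing so. It had the highest ATOH8 score of the set and was the only gene of the set with peaks of both factors inside it. The ATOH8 peak, at chr7:75914734-75915617 (hg38), scored 179, which put it at ranks 318 to 322 of 4997 and above 93.6% of the list. It was 883 bp wide and ran from 421 bp outside the lower-coordinate end of POR (chr7:75915155-75986855) to 462 bp inside it. POR is known to be transcribed from that end, although the gene table used here gives no strand for it. Across all protein-coding genes, 11.1% had an ATOH8 peak across an annotated end, and POR was the only 1 of the 10 that did.

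A TCF3 peak at chr7:75915194-75915802 scored 50, above 30.9% of its list, and began 39 bp inside POR. It shared 423 bp with the ATOH8 peak, which was 69.6% of its own width and 47.9% of the ATOH8 peak's. The midpoints were 322.5 bp apart, so the same stretch stood high in the ATOH8 list and in the lower part of the TCF3 list. Over the whole lists, 28.8% of ATOH8 peaks overlapped the other list by at least 1 bp, as did 12.5% of TCF3 peaks. The overlapping stretch holds the whole hairpin of a microRNA, MIR4651 (chr7:75915197-75915269, plus strand, RefSeq GRCh38.p14), named here after the peaks were seen. Its mature sequence is printed because it lies in the stretch common to both peaks, with the seed (bases 2 to 8) in capitals.
hsa-miR-4651: cGGGGUGGgugaggucgggc

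At the other end of POR a TCF3 peak scored 36. Many peaks tied at that score, over ranks 9846 to 11387 of 11390, and only 3 TCF3 peaks scored lower. The peak was the widest at the 10 genes, 2798 bp, against a median of 718 bp in the TCF3 list. It ran from 2818 to 20 bp before the higher-coordinate end of POR and also covered the lower-coordinate end of its neighbour TMEM120A, named after the peaks were seen. The other ATOH8 peak assigned to POR scored 58, above 14.8% of the list. Its midpoint was 48.3 kb outside the gene, just inside the limit of 50 kb, and RHBDD2 lay between. RHBDD2 was the nearest protein-coding gene, at 12.2 kb.

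**Figure D3:**
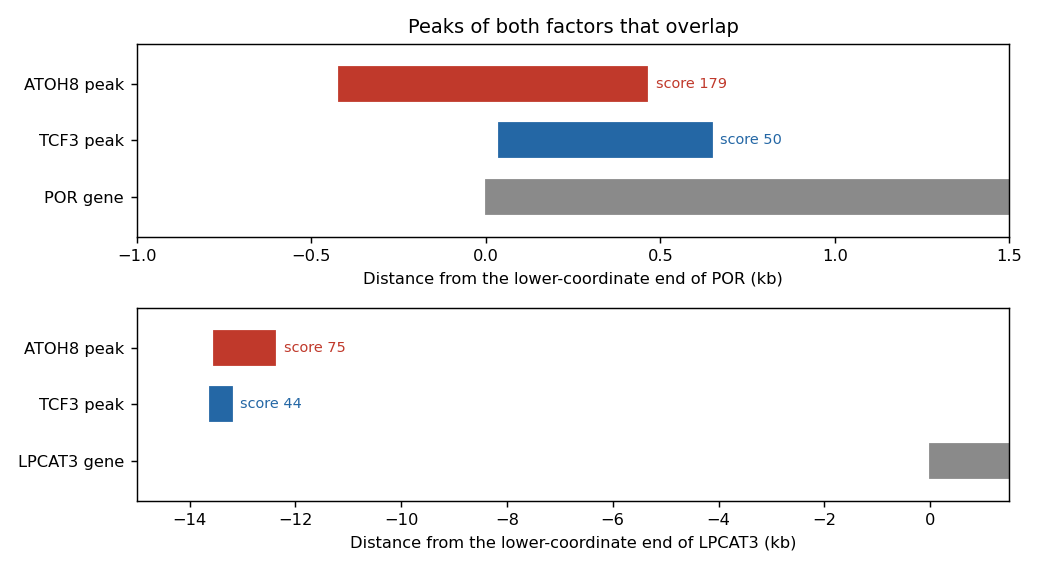
The places near POR (top) and LPCAT3 (bottom) where an ATOH8 and a TCF3 peak overlap, with distance in kb from the lower-coordinate end of the gene on the horizontal axis, and peaks and gene bodies as bars. At POR both peaks reach into the gene and share 423 bp, while at LPCAT3 the overlapping pair lies about 13 kb outside the gene.

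CYB5R1, an NADH-dependent cytochrome b5 reductase that also yields hydrogen peroxide, had 1 peak of each factor within 50 kb and none inside. The ATOH8 peak (chr1:202957905-202958288) scored 63, above 22.8% of the list. Its midpoint was 3.78 kb from CYB5R1 (chr1:202961873-202967257) but inside ADIPOR1, which encodes an adiponectin receptor, 475 bp from an end of that gene. The TCF3 peak (chr1:203007414-203007820) scored 54, above 41.6% of its list, and was 40.4 kb from CYB5R1, inside TMEM183A and 243 bp from an end of it. The peaks of the 2 lists were 49.1 kb apart and lay on opposite sides of CYB5R1. For the pair of reductases, then, both factors were listed at an end of POR itself and at the ends of genes beside CYB5R1.

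ACSL4, the enzyme that activates arachidonic and adrenic acid, had no listed peak within 1 Mb. The nearest ATOH8 peak was 2641 kb from the gene (chrX:109641335-109733257) and the nearest TCF3 peak 1063 kb. NOX1, also on the X chromosome (chrX:100843324-100874359), had its nearest ATOH8 peak at 6125 kb and its nearest TCF3 peak at 2063 kb. The ATOH8 list held 25 peaks on the X chromosome and the TCF3 list 50, which is 0.505% and 0.441% of the peaks on chromosomes 1 to 22 and X. An ATOH8 peak lay within 50 kb of 7.78% of protein-coding genes on the X chromosome and of 45.2% of those on the other chromosomes, and the TCF3 shares were 6.6% and 55.8%. Both genes of the set on that chromosome were thus without a peak where few genes had one.

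LPCAT3, the acyltransferase that places polyunsaturated fatty acids into phospholipids, had 3 ATOH8 peaks and 1 TCF3 peak within 50 kb, 4 in all as at POR, and none touched it. RefSeq places LPCAT3 at chr12:6976185-7018476 on the minus strand, so it is read from its higher-coordinate end. All 4 peaks lay beyond the other end, 55.3 to 80.9 kb from its start. The ATOH8 peaks scored 127, 135 and 75, above 78.5%, 81.5% and 41.4% of the list, and lay 38.6, 29.5 and 13.0 kb from the gene. The 127 peak was inside ATN1, which encodes atrophin 1. The 135 peak (chr12:6946321-6947021) covered the lower-coordinate end of PTPN6, which encodes the tyrosine phosphatase SHP-1.

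The ATOH8 peak with score 75 (chr12:6962644-6963801) overlapped the TCF3 peak (chr12:6962570-6962982, score 44, above 17.8% of its list) over 338 bp. Its nearest protein-coding gene was PTPN6, 1.91 kb away. The ATOH8 peak also covered the start of MIR200CHG, the non-coding host gene of the microRNAs miR-200c and miR-141, and the whole hairpin of MIR200C (chr12:6963699-6963766, plus strand). MIR200CHG and MIR200C were named after the peaks were seen. The miR-200 family is known for holding cells in an epithelial state. The TCF3 peak ended before the MIR200CHG start.

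Starts of genes from RefSeq (GRCh38.p14), each window with 250 bases before the start and 50 from it onward, were searched for E-boxes. The table held 8 such windows for 6 of the 10 genes: ACSL4, LPCAT3, ALOX12, PEBP1, NOX1 and NOX4. ALOX5, ALOX15, POR and CYB5R1 were not matched. None of the 8 windows lay under a peak of either list. The share of all windows under a peak is not given here. POR and ALOX5, each with a peak across its lower-coordinate end, were among the genes not matched, so nothing is read from that count. The word CANNTG, which reads as the same form on both strands, was found in 2 of the 8 windows, both of NOX4, while 65.1% of 22131 windows of protein-coding genes held it. The LPCAT3 window is printed with 3 of the 4 windows that lay wholly under ATOH8 peaks at LPCAT3 and CYB5R1, to set a start that had no peak beside starts that did. The other of those 4, of the non-coding gene LOC105369634, lay under the same peak as that of MIR200CHG and held 2 CANNTG. These 2 windows overlap on opposite strands. The CANNTG nearer to the LOC105369634 start is the same site as that of the MIR200CHG window, so they are not separate counts. Windows partly under a peak were not printed either. A TMEM183A window with 267 bp under the TCF3 peak and an ADIPOR1 window with 26 bp under the ATOH8 peak held no CANNTG. Another TMEM183A window, with 10 bp under the TCF3 peak, held 3. No contrast between starts with and without a peak is read from these windows. Every CANNTG is in capitals, 5′ to 3′ in the direction of the gene. The windows are chr12:7018427-7018726 (minus strand) for LPCAT3, chr12:6946327-6946626 (plus) for PTPN6, chr12:6962995-6963294 (plus) for MIR200CHG and chr1:202957935-202958234 (minus) for ADIPOR1.
LPCAT3: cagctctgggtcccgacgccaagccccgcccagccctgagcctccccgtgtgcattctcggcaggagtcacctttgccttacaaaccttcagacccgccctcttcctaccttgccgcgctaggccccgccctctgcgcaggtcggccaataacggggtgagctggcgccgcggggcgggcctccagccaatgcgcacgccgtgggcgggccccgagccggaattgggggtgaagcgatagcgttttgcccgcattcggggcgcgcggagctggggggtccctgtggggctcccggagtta
PTPN6: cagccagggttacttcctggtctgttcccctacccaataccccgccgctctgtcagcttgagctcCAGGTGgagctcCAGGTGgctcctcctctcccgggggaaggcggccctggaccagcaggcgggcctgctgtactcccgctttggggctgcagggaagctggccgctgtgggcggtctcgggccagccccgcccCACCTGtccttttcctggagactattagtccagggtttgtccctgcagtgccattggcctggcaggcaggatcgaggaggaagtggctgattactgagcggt
MIR200CHG: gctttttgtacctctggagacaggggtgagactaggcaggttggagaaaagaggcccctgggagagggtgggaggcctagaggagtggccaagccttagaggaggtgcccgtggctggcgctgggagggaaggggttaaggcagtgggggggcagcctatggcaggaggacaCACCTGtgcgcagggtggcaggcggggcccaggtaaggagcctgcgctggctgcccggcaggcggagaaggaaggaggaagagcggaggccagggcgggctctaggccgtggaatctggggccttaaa
ADIPOR1: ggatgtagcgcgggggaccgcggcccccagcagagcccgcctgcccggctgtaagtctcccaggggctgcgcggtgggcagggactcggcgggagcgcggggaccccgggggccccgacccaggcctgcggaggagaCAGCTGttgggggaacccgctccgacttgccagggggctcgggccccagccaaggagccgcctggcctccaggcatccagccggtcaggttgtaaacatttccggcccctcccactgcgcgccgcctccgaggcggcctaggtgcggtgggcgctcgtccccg
hsa-miR-200c-3p, with its seed in capitals: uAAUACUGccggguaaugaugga

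The LPCAT3 window held no CANNTG. The PTPN6 window held 3, at 185, 173 and 52 bases before the start, all of the form CACCTG or its reverse complement CAGGTG. Of windows of protein-coding genes, 12.4% held 3 or more CANNTG of any kind, and 0.56% held 3 or more CACCTG on either strand. The MIR200CHG window held 1, a CACCTG at 78 bases before the start, a word found on either strand in 20.0% of windows of protein-coding genes. The ADIPOR1 window held 1, a CAGCTG at 113 bases before the start, a word found in 18.0% of them. Each of these matches is a run of letters and not a measured binding site.

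The lipoxygenases insert oxygen into polyunsaturated fatty acids, ALOX5 in leukotriene synthesis and ALOX12 and ALOX15 in the making of hydroperoxides at other carbons. All 3 had TCF3 peaks within 50 kb and none had an ATOH8 peak there, where 53.7% and 43.6% of all protein-coding genes had one, and only ALOX5 was touched. The ALOX5 peak (chr10:45373216-45374782) scored 89, above 71.0% of the TCF3 list, and was 1566 bp wide. It ran from 1000 bp outside the lower-coordinate end of ALOX5 (chr10:45374216-45446117) to 566 bp inside. ALOX5 is known to be transcribed from that end, and the table gives no strand for it. Together with the peak inside NOX4 it had the highest TCF3 score at the 10 genes. A TCF3 peak across an annotated end was seen at 10.6% of all protein-coding genes and at 2 of the 10, ALOX5 and NOX4.

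Another TCF3 peak 7.90 kb beyond the other end of ALOX5 scored 36 and was 570 bp from MARCHF8, a membrane ubiquitin ligase gene. The nearest ATOH8 peak was 148.6 kb from ALOX5. At ALOX12 (chr17:6996049-7010754, plus strand) the TCF3 peak scored 48, above 29.5% of the list, and lay 25.5 kb away. It was inside SLC16A13, a gene of the monocarboxylate transporter family, and 3 other protein-coding genes, RNASEK, BACC1 and BCL6B, lay between. At ALOX15 (chr17:4630919-4641678) the TCF3 peak scored 70, above 55.7% of the list, and lay 32.7 kb away inside PELP1, which encodes a coregulator of nuclear receptors. The peaks assigned to ALOX12 and ALOX15 therefore lay in neighbouring genes.

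PEBP1, a kinase inhibitor protein known to bind the lipoxygenase made from ALOX15 and steer it to phospholipids, had no listed peak within 50 kb (chr12:118136124-118145584). The nearest TCF3 peak, with score 109, was 100.8 kb from the gene, and the nearest ATOH8 peak 1255 kb. PEBP1 and its partner ALOX15 were both without an ATOH8 peak within 50 kb, where 43.6% of all protein-coding genes had one. Only ALOX15 had a TCF3 peak within that distance, as did 53.7% of all protein-coding genes. For ALOX15 the nearest ATOH8 peak, with score 79, was 97.9 kb away.

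NOX1 and NOX4 are catalytic subunits of NADPH oxidases, which pass electrons across a membrane to oxygen. NOX4 (chr11:89324353-89589557, minus strand) had 3 TCF3 peaks, the most of the 10 genes in that list, and no ATOH8 peak within 311 kb. The peak inside the gene (chr11:89531677-89532079) scored 89, above 71.0% of the list, and was 39.7 kb from the nearest of the 3 starts in the RefSeq promoter table. A peak with score 43 (chr11:89589333-89590073), above 15.7% of the list, crossed the higher-coordinate end of the annotated gene and was 97.5 kb from the nearest of those starts. The remaining peak scored 80, above 68.5% of the list, and lay 29.5 kb below the gene, inside TYR, the tyrosinase gene, 881 bp from its end. NOX4 and NOX1, which share an enzyme class, had 3 TCF3 peaks and none. NOX1 lies on the X chromosome, where 6.6% of protein-coding genes had a TCF3 peak within 50 kb, against 55.8% on the other chromosomes. It is also shorter, 31.036 kb against 265.205 kb, so the contrast is not read as a trait of the genes.

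**Figure D4:**
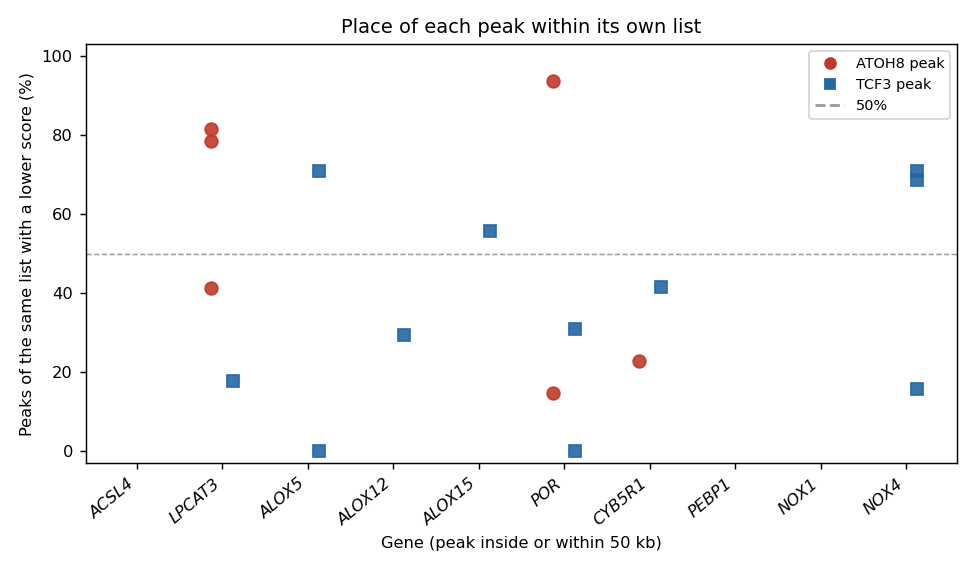
Place of each of the 17 peaks in its own list, as the percent of peaks of that list with a lower score (vertical axis), by gene (horizontal axis), with ATOH8 peaks as circles, TCF3 peaks as squares and a dashed line at 50%. The ATOH8 peak across the end of POR is highest, at 93.6%, and 2 TCF3 peaks, at ALOX5 and POR, lie near 0. Those 2 peaks have a score of 36, which many peaks share over tied ranks 9846 to 11387.

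In score, the ATOH8 peaks at the 10 genes ran from 58 to 179 with a median of 101, and 3 of 6 were above the list's median of 84. The TCF3 peaks ran from 36 to 89 with a median of 50, and 4 of 11 were above the list's median of 61. Peaks within 50 kb of any protein-coding gene had median scores of 85 and 61. Just outside the limit of 50 kb, the nearest listed ATOH8 peaks were 61.4 kb from POR (score 86) and 61.4 kb from LPCAT3 (score 58), followed by 1 at 73.3 kb from CYB5R1 (score 70). The TCF3 list held 1 peak between 50 and 100 kb from any of the 10 genes, 91.1 kb from ALOX15 with score 43.

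Further genes of lipid oxidation were read as a list of 43, in 6 groups by role. ATOH8 peaks lay within 50 kb of 17 of them (39.5%, Wilson 95% interval 26.4 to 54.4%, against 43.6% of all protein-coding genes) and TCF3 peaks of 29 (67.4%, 52.5 to 79.5%, against 53.7%). Within 5 kb the counts were 12 for ATOH8 (27.9%, 16.7 to 42.7%, against 25.1%) and 20 for TCF3 (46.5%, 32.5 to 61.1%, against 32.9%). Each of these intervals holds the share of all genes. Within 1 kb the TCF3 count was 19 (44.2%, 30.4 to 58.9%, against 29.3%). A TCF3 peak crossed an annotated end of 9 (20.9%, 11.4 to 35.2%, against 10.6%). Both of these TCF3 intervals lie above the share of all genes. The matching ATOH8 counts were 11 (25.6%, 14.9 to 40.2%, against 22.2%) and 8 (18.6%, 9.7 to 32.6%, against 11.1%), whose intervals hold it. All these intervals treat the 43 genes as independent, although some share a peak. The same TCF3 peak, with score 70, was counted within 50 kb of ALOX12B, ALOX15B and ALOXE3. The list was chosen with earlier results of these data known and is no independent support.

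Among 11 genes of fatty acid activation and phospholipid remodelling, the steps in which ACSL4 and LPCAT3 act, ATOH8 peaks lay within 5 kb of 4 and TCF3 peaks of 5. These counts and those of the groups that follow stand beside shares of 25.1% (ATOH8) and 32.9% (TCF3) of all protein-coding genes, and nothing is read from them for groups this small. AGPAT3, an acyltransferase of phospholipid synthesis, had an ATOH8 peak with score 238. That peak lay 649 bp from the lower-coordinate end of AGPAT3, but 52.2 kb from its nearest start in the RefSeq promoter table. LPCAT4, another lysophospholipid acyltransferase, had an ATOH8 peak with score 125 across an end. LPCAT1, which acts in the same remodelling cycle, had the highest TCF3 peak within 5 kb of any of the 43 genes, with score 200 and a midpoint 39 bp from its annotated start. An ATOH8 peak of score 65 shared 2177 bp with it. The 4 other ACSL genes, ACSL1, ACSL3, ACSL5 and ACSL6, had TCF3 peaks within 50 kb and no ATOH8 peak. Of all protein-coding genes, 53.7% had a TCF3 and 43.6% an ATOH8 peak at that distance. ACSL4 had neither, but it alone of these lies on the X chromosome, where the shares were 6.6% and 7.78%.

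Of the 4 genes that desaturate or elongate polyunsaturated fatty acids, all had TCF3 peaks within 5 kb (32.9% of all genes) and 3 had ATOH8 peaks (25.1%). FADS1 and FADS2 shared the same highest peak in each list, so they are not independent counts. ELOVL5 and ELOVL2, elongases of polyunsaturated fatty acids, had TCF3 peaks of 166 and 131, and the ELOVL5 peak shared 438 bp with an ATOH8 peak of score 62. Of 6 other genes of the lipoxygenase and cyclooxygenase pathways, ATOH8 peaks lay within 5 kb of 1 and TCF3 peaks of 3. PTGS2, the inducible cyclooxygenase, had a TCF3 peak with score 190, 70 bp from its start. ALOXE3, an epidermal lipoxygenase, had 2 ATOH8 peaks within 5 kb. The nearer, with score 145, had its midpoint inside ALOXE3 and crossed an annotated end of it. The other, with score 258, lay inside HES7, a repressor gene.

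Of 5 genes of cytochrome b5 and its reductases, which carry electrons as CYB5R1 does, 2 had ATOH8 peaks within 5 kb, CYB5A (102) and CYB5R3 (73), both across an annotated end, and none had a TCF3 peak within that distance. Of 11 NADPH oxidase and subunit genes, 1 had an ATOH8 peak within 5 kb and 6 had a TCF3 peak. The ATOH8 peak (score 73) was 3.87 kb from NOXA1, a subunit that activates NOX1, but its midpoint lay inside ENTPD8. Another ATOH8 peak, with score 1273, was 7.26 kb from NOXA1 and crossed an end of ENTPD8. A TCF3 peak with score 105 crossed the lower-coordinate end of NOXA1 and an end of its neighbour EXD3. Of 6 genes of ether lipid synthesis and other ferroptosis steps, 1 had an ATOH8 peak within 5 kb, FAR1, and 2 had a TCF3 peak, FAR1 and PEDS1.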

How the data were processed

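Peak lists of the ATOH8 Flag and TCF3 Myc immunoprecipitations in DU145 cells were used, 1 library each, matched to the samples by factor name. The inputs were not analysed here. Per the file headers, the deposited lists give chromosome, start, end, strand and a peak score. The score is the authors' own. No definition of it, aligner, caller or threshold and no role of the input is given in the sources used here. The build is hg38, per the submitters' processing notes. Whether starts count from 0 or 1 is not given either, so a width is end minus start. Lines without a peak (3 and 5) were skipped.

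Gene positions, promoter windows and microRNA sequences came from RefSeq tables of GRCh38.p14. All 10 genes and the 43 related genes matched by symbol. The nearest gene was that with the smallest distance from the peak midpoint, then from its nearer end. Overlap meant at least 1 shared bp. Tied scores share a range of ranks. No test was made, since each group has 1 library, and counts are set beside all 19970 protein-coding genes. Wilson 95% intervals cover the counting of genes only.

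The 10 genes and the related list were chosen with earlier results of these data known. Named genes were the 10, the 4 related genes with the highest score within 5 kb per factor, and the gene nearest to each peak. Others were named after their values were seen. Counting functions were tested on simulated peaks. Alternatives were windows of 5 and 100 kb, peak edges, the higher-ranked 50% of peaks, equal list lengths, 50% reciprocal overlap and midpoints within 200 bp. Python 3.11.15, scipy 1.17.1, numpy 2.4.6, pandas 2.3.3 and matplotlib 3.10.9 were used.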

Additional observations from a re-analysis of the deposited data

How the results depend on the processing

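No paired analysis was possible because each factor has 1 library and no test was made. Of 28 alternatives, 15 gave a count within 1.5 times the reported value. The number of the 10 genes with a TCF3 peak fell from 7 to 3 within 5 kb (POR, ALOX5 and NOX4), and to 3 both with the higher-ranked 50% of peaks and with equal numbers of peaks in the lists (ALOX5, NOX4 and ALOX15). The TCF3 peaks at the 10 genes then numbered 4 of 11 under both rank limits, and the ATOH8 peaks 3 of 6 with the higher-ranked 50%. The related genes with a TCF3 peak numbered 19 in place of 29 with the higher-ranked 50%. Among all protein-coding genes the TCF3 share was 53.7% within 50 kb and 32.9% within 5 kb. Their shares under the rank limits are not given here, so these falls are not read as particular to the genes. The pairs of overlapping peaks at POR and LPCAT3, counted from the ATOH8 or the TCF3 list, numbered 2 by 1 shared bp and 0 by reciprocal overlap of 50%, by midpoints within 200 bp and with the higher-ranked 50%. At that last setting the TCF3 peaks of both pairs drop out, with scores of 50 and 44 under the TCF3 median of 61. Counts of the 10 genes with an ATOH8 peak ranged from 2 to 4 over these alternatives, and the count within 1 kb was 1. Read depth is unknown, and stretches of scores without a listed peak limit what the absence of a peak can show.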
